A study of Mus musculus with 38 samples.

Results

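The genes described here are 10 core components of transforming growth factor beta (TGF-beta) signalling: the ligand genes Tgfb1 and Tgfb3, the receptor genes Tgfbr1 and Tgfbr2, the signal transducers Smad2, Smad3 and Smad4, the inhibitory Smad7, and the co-repressor genes Ski and Skil. They were taken by gene symbol from gene-level expression tables with 23700 entries each, and all 10 were found at a single locus in every table. The study asked how STAT proteins and lineage factors shape enhancers and expression in mouse CD4 T helper cells, and 14 RNA libraries of that study were used here. All came from C57BL/6J mice, as naive CD4 T cells sorted from spleen and lymph nodes and polarised in vitro towards Th1 or Th2. Of the 13 groups, 12 held 1 library and WT Th1 held 2.

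Without a vector, the libraries were STAT6 KO Th2 and WT Th2, and STAT4 KO Th1, T-bet KO Th1 and WT Th1 (replicates 1 and 2), cultured for 7 days and restimulated for 2 h through CD3 and CD28, with IL-4 for Th2 and IL-12 for Th1. The knockout alleles are given as Stat6 tm1, STAT4 tm1 and Tbet tm1. With a retrovirus, the libraries were STAT6 KO and WT Th2 cells carrying a GATA3 or a control vector, and STAT4 KO and WT Th1 cells carrying a T-bet or a control vector, labelled as 5 days of polarisation. The control vector carries a human NGFR marker after an IRES, and the T-bet vector adds the T-bet cDNA. For the Th1 vector cultures another label gives 7 days and 2 h of restimulation, and for the Th2 vector cultures no restimulation is described. Virus, culture time and restimulation therefore cannot be told apart between vector and no-vector cultures. Nothing in the labels says how many mice a library came from, and p-values measure the spread between these libraries, which may be technical.

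TGF-beta is secreted in a latent form, which must be activated before it can bind. The active ligand binds the type II receptor (Tgfbr2), which recruits and phosphorylates the type I receptor kinase (Tgfbr1). That kinase phosphorylates Smad2 and Smad3, which enter the nucleus with the shared partner Smad4. Smad7, itself a gene induced by the pathway, blocks the type I receptor and promotes its degradation, and Ski and SnoN (the product of Skil) bind Smad complexes and recruit co-repressors. In T cells the pathway is known for restraining Th1 and Th2 differentiation, for inducing Foxp3 and, with IL-4, IL-9. The readout here is RNA, which does not measure the active ligand or Smad phosphorylation.

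Values are FPKM, fragments per kilobase of transcript, scaled to the number of mapped fragments, with the interval that the Cufflinks program lists around each estimate. That interval covers counting error only. Intervals of the 9 genes other than Tgfb3 reached at most 8.52% above or below the estimate in any library, so differences between libraries mostly exceeded counting error. Differences between groups were fitted with limma on log2(FPKM + 1) over 11121 genes, with additive terms for lineage, vector culture, each knockout and each factor vector. The threshold for a call was a 2-sided p below 0.05 after Benjamini-Hochberg adjustment over all genes tested, and errors beside log2 differences are standard errors (SE) of that fit. Because groups hold single libraries, the spread comes from the WT Th1 replicates and from departures from additivity, with 6 residual degrees of freedom. In these bulk libraries, fewer cells of a type and less RNA per cell cannot be told apart.

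Among the libraries, WT Th1 replicate 2 and T-bet KO Th1 stood apart. Their Pearson correlation with each other over log2(FPKM + 1) was 0.976, against 0.676 to 0.801 with the other 12 libraries, which correlated at 0.856 to 0.99 among themselves. Small RNA genes held 20.7% and 22.2% of their summed FPKM, against 4.43% to 7.65% elsewhere. Results that involve them are therefore given also from a fit on the other 12 libraries. In that fit no group holds 2 libraries. Its spread comes from departures from additivity alone, with 5 residual degrees of freedom. As a check of the labels, Stat4 stood at 17.6, 7.57 and 6.71 FPKM in the STAT4 KO libraries (no vector, control vector, T-bet vector), against 60.8, 41.0 and 37.1 FPKM in WT Th1 replicate 1 and the matched WT vector libraries, and at 15.1 FPKM in WT Th1 replicate 2. Tbx21, which encodes T-bet, had 4.18 FPKM in T-bet KO Th1, against 88.4 and 153 FPKM in both WT Th1 replicates. Stat6 RNA was 34.6, 36.1 and 23.3 FPKM in STAT6 KO Th2 (no vector, control vector, GATA3 vector), against 35.6, 65.9 and 48.0 FPKM in WT Th2, so that without a vector it does not separate the labels. Which part of each gene the alleles remove was not known from the labels. The 3 Th2 genes Gata3, Il4 and Il13 summed to 83.2 FPKM in STAT6 KO Th2 and to 650 FPKM in WT Th2 without a vector. The 6 T cell markers were at 25.3 FPKM or more in every library. Marker lists of other cell types summed to at most 5.65 FPKM for CD8 T cells (mainly Cd8b1), 1.46 for B cells, 0.194 for NK cells, 0.92 for stroma and 2.52 for platelets. The myeloid list reached 8.61 FPKM in WT Th2 without a vector, through Emr1 at 8.42 FPKM, and at most 1.86 FPKM in the other libraries.

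Tgfb1 had the highest FPKM of the 10 genes in 13 of the 14 libraries, at a median of 183 FPKM over the 14 libraries. It lies at chr7:26472021-26490015 (mm9) and encodes the TGF-beta form that T cells mainly make. Its lowest level was 72.2 FPKM in STAT6 KO Th2 without a vector and its highest 406 FPKM in T-bet KO Th1, a 5.63-fold range. In STAT6 KO Th2 without a vector Skil was higher, at 82.5 FPKM. Tgfb1 stood above at least 91.5% of the genes with 1 FPKM or more in each library. Tgfb3 (chr12:87397693-87419991), the other ligand gene, was close to absent in most libraries. It reached 1.86 FPKM in WT Th1 replicate 2 and 0.855 FPKM in T-bet KO Th1, the 2 libraries that stand apart. In the other 12 it ranged between 0.044 FPKM in WT Th1 with the T-bet vector and 0.404 FPKM in WT Th2. Only 1 library held Tgfb3 at 1 FPKM, so it failed the filter of 1 FPKM in at least 2 libraries, and the other 9 genes passed.

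The receptor genes differed in level and in pattern. Tgfbr2 (chr9:115996813-116084481) had a median of 35.0 FPKM and ranged between 15.04 FPKM in STAT4 KO Th1 with the T-bet vector and 52.3 FPKM in WT Th1 replicate 2. Tgfbr1 (chr4:47366177-47427796) had a median of 14.05 FPKM, with 18.5 FPKM in STAT6 KO Th2 with the GATA3 vector as its highest level. In WT Th1 replicate 2 and T-bet KO Th1 it stood at 2.72 and 3.46 FPKM, while none of the other 12 libraries was below 8.39 FPKM. The ratio of Tgfbr1 to Tgfbr2 FPKM was below 1 in every library. It was 0.052 and 0.069 in the 2 libraries that stand apart, 0.174 in WT Th1 replicate 1 and 0.334 to 0.745 in the other 11.

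Among the transducers, Smad3 (chr9:63494574-63605801) had the highest median, 29.1 FPKM, followed by Smad4 (chr18:73798667-73863395) with 17.7 FPKM and Smad2 (chr18:76401355-76471401) with 4.78 FPKM. Smad3 exceeded Smad2 in every library. Smad4 varied least of the 10 genes, between 13.7 FPKM in WT Th2 and 21.4 FPKM in STAT4 KO Th1 without a vector, a 1.55-fold range. Smad2 ranged between 2.29 FPKM in T-bet KO Th1 and 6.35 FPKM in STAT4 KO Th1 with the control vector. Outside the 2 libraries that stand apart its lowest level was 4.06 FPKM. The inhibitory Smad7 (chr18:75527019-75555588) had a median of 8.22 FPKM and a 6.30-fold range, between 3.71 FPKM in WT Th2 with the GATA3 vector and 23.4 FPKM in WT Th1 replicate 2. The co-repressor genes stood higher, Skil (chr3:30993983-31021499) with a median of 40.7 FPKM and Ski (chr4:154528184-154596644) with 23.1 FPKM. By median FPKM the order was thus Tgfb1, Skil, Tgfbr2, Smad3, Ski, Smad4, Tgfbr1, Smad7, Smad2 and Tgfb3, and the ranges of neighbours in that order overlapped over the 14 libraries, except those of Smad2 and Tgfb3.

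**Figure D1:**
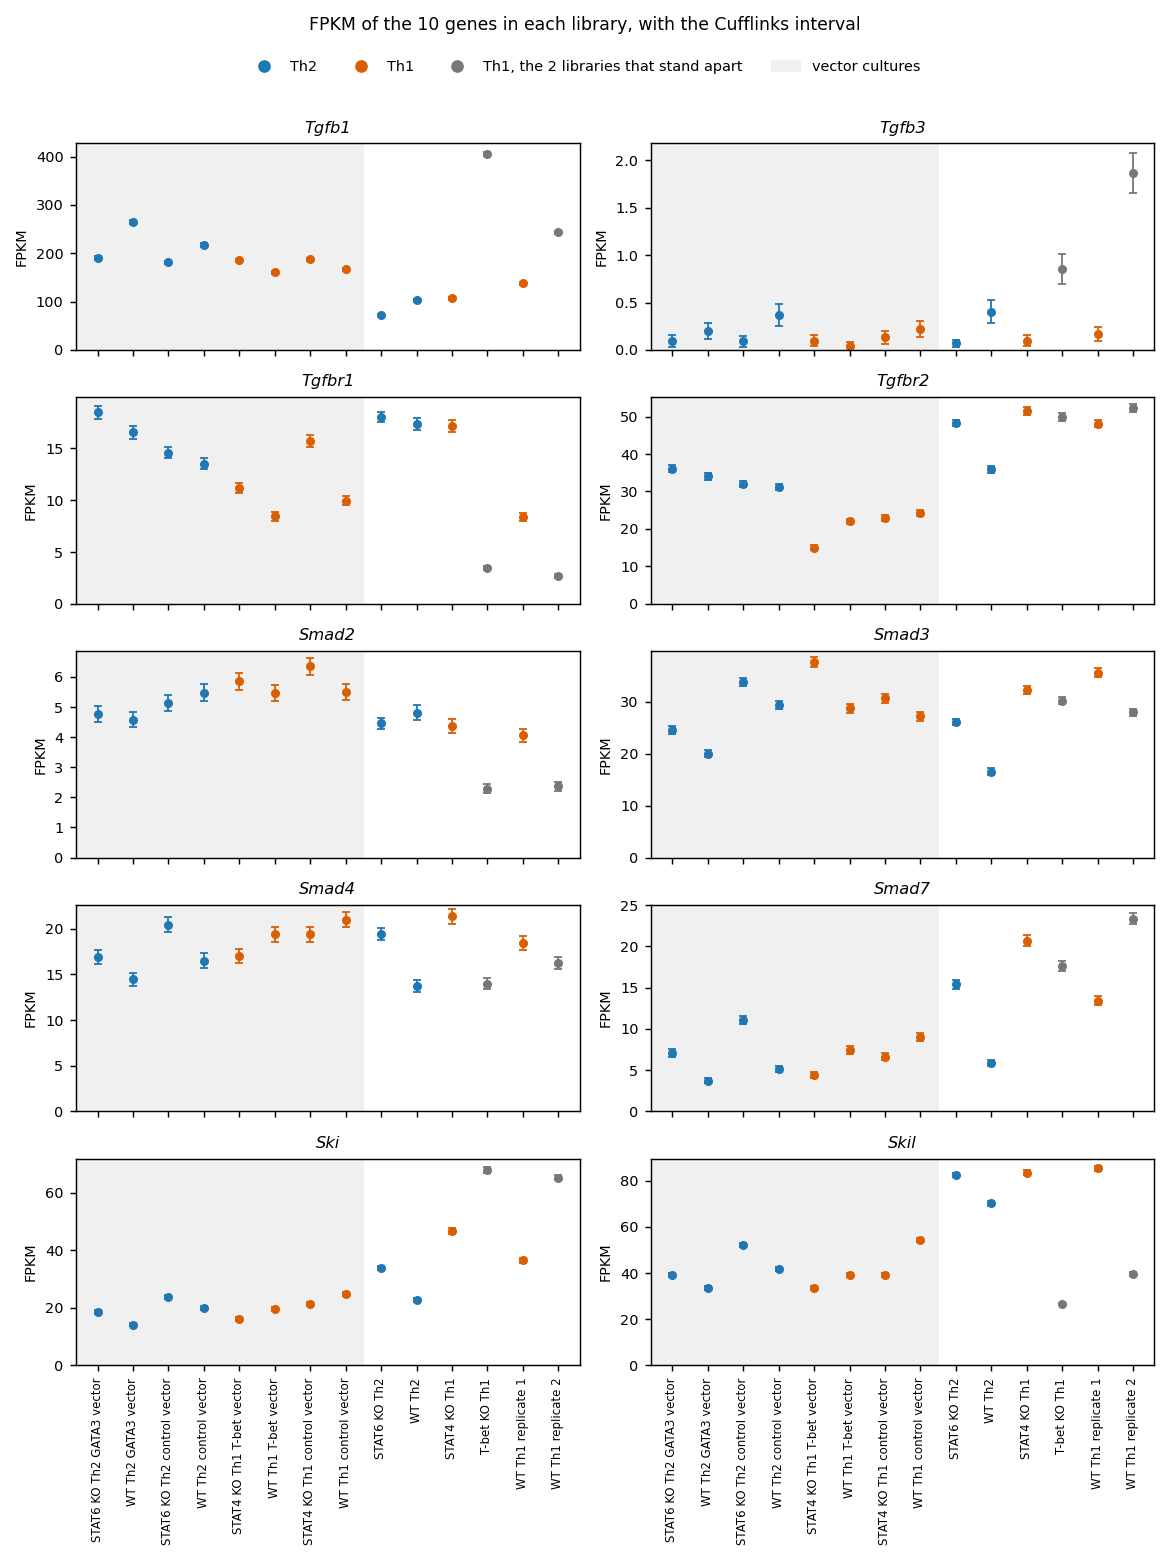
FPKM of each of the 10 genes (y axes, separate scales) in each of the 14 libraries (x axis), with the interval that Cufflinks lists as bars, vector cultures shaded, Th2 libraries blue, Th1 libraries orange and the 2 libraries that stand apart grey. Tgfb1 is at 161 FPKM or more in all vector cultures, Tgfbr1 is lowest in the 2 grey libraries, and Smad7 and Ski are low in vector cultures and in WT Th2.

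The only calls among these genes in the 14-library fit lay between vector and no-vector cultures, where calls were also most common over all genes. Tgfbr2, Smad7 and Ski fell in vector cultures, and Skil was lower in all 4 control-vector cultures than in their no-vector counterparts, while Tgfb1 and Smad2 were higher in all 4. In the 14-library limma fit, 3 of the 9 genes tested passed the threshold, all lower, and 6 had an unadjusted p under 0.05, as did 43.3% of all genes. This is read against a background of 31.5% of all genes called in this comparison, 23.4% higher and 8.15% lower. With upper-quartile scaling the calls over all genes split into 1887 higher and 1225 lower, and with quantile normalization into 1782 and 1322, against 2599 and 906 with the FPKM as deposited. The median log2 difference was 0.12 over the 9 genes and 0.16 over all genes. Of all genes tested, 40.1% were higher and 18.6% lower in all 4 pairs, against 2 and 4 of the 9 genes. The 6 T cell markers summed to 542 to 734 FPKM in vector cultures, against 973 to 1264 FPKM in no-vector cultures, with no overlap. The part of this shift in the results was not tested.

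Tgfbr2, the ligand-binding receptor, had 15.04 to 36.1 FPKM in the 8 vector cultures (median 27.8), against 36.0 to 52.3 FPKM in the 6 no-vector cultures (median 49.1). The ranges touch through WT Th2 without a vector, and every other no-vector library was above every vector culture. The fitted difference was -0.74 (SE 0.17, limma adjusted p = 0.013). With the 12 libraries it was -0.72 (SE 0.17, adjusted p = 0.008). In library pairs the ratio of control-vector to no-vector FPKM was 0.446 in STAT4 KO Th1, 0.506 in WT Th1, 0.662 in STAT6 KO Th2 and 0.868 in WT Th2, so the difference was larger in both Th1 pairs. An interaction of lineage with vector culture, added after the data were seen, was 0.65 (SE 0.28, limma adjusted p = 0.695). With the 12 libraries it was 0.65 (SE 0.24, adjusted p = 0.272). Restimulation is described for the Th1 vector cultures alone, so lineage cannot be told apart from it in this contrast.

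Ski, whose product represses Smad target genes, had 14.1 to 24.9 FPKM in vector cultures (median 19.8), against 22.6 to 68.0 FPKM in no-vector cultures (median 41.5). Only WT Th2 without a vector, at 22.6 FPKM, lay within the range of the vector cultures. The fitted difference was -0.69 (SE 0.21, limma adjusted p = 0.035). Its adjusted p was 0.012 with the 12 libraries, at -0.57 (SE 0.15). Smad7 had 3.71 to 11.1 FPKM in vector cultures (median 6.86), against 5.87 to 23.4 FPKM in no-vector cultures (median 16.5). Here too WT Th2 without a vector sat among the vector cultures, and its interval overlapped that of WT Th2 with the control vector. The fitted difference of Smad7 was -0.75 (SE 0.25, limma adjusted p = 0.046), and -0.66 (SE 0.23, adjusted p = 0.038) with the 12 libraries.

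Skil, which encodes the co-repressor SnoN, had 33.4 to 54.3 FPKM in vector cultures (median 39.2), against 70.3 to 85.5 FPKM in 4 no-vector cultures (median 83.0). These ranges do not overlap, but WT Th1 replicate 2 and T-bet KO Th1, also without a vector, had 39.6 and 26.6 FPKM. The difference was -0.59 (SE 0.24, limma adjusted p = 0.10) with the 14 libraries and -0.77 (SE 0.10, adjusted p = 4.7e-04) with the 12. Without the 2 libraries that stand apart, 6 of 9 genes passed, 4 lower and 2 higher, while 53.7% of all genes were called. The 2 higher ones were Tgfb1 and Smad2.

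Tgfb1 had 161 to 265 FPKM in vector cultures (median 186), against 72.2 to 138 FPKM in 4 no-vector cultures (median 105). The ranges are separate, but again the 2 libraries that stand apart, at 243 and 406 FPKM, lay high. Its difference was 0.68 (SE 0.28, limma adjusted p = 0.095) with the 14 libraries and 0.87 (SE 0.17, adjusted p = 0.003) with the 12. Tgfb1 was also called with 14 libraries under quantile normalization (0.90, limma adjusted p = 0.017). The same held with scaling to the FPKM outside small RNA genes (0.86, adjusted p = 0.028), but not with upper-quartile scaling (0.53, adjusted p = 0.173). Smad2, a receptor-activated transducer, had 4.58 to 6.35 FPKM in vector cultures (median 5.48), against 4.06 to 4.81 FPKM in the 4 no-vector cultures (median 4.41). Its difference was 0.39 (SE 0.16, limma adjusted p = 0.101) with the 14 libraries and 0.29 (SE 0.09, adjusted p = 0.033) with the 12. The share of small RNA genes was 4.43% to 7.65% in vector cultures and 5.48% to 5.55% in these 4 no-vector cultures.

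**Figure D2:**
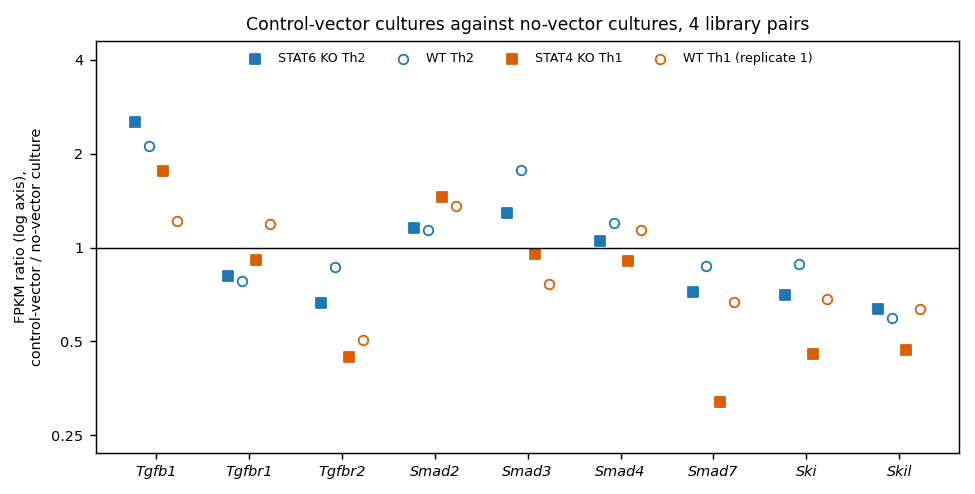
Ratio of FPKM in the control-vector culture to that in the no-vector culture of the same genotype and lineage (y axis, log scale) for 9 genes (x axis), 1 point per library pair, squares for knockouts, open circles for WT, blue for Th2 and orange for Th1. All 4 points lie above 1 for Tgfb1 and Smad2 and below 1 for Tgfbr2, Smad7, Ski and Skil.

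The calls of Smad7 and Ski lie close to the threshold. Leaving out 1 library at a time ended that of Smad7 in 10 of 14 cases, all but WT Th1 replicates 1 and 2, T-bet KO Th1 and WT Th2 without a vector, with differences of -0.54 to -0.87. For Ski it ended in 9 of 14 cases, the same ones except WT Th2 with the control vector, with differences of -0.59 to -0.75. For Tgfbr2 the call ended without the control-vector library of WT Th1 (-0.60) or of STAT4 KO Th1 (-0.68). The calls also depend on scaling. Rescaling each library to its FPKM outside small RNA genes moved the median log2 difference of all genes to 0.30, and the adjusted p of Tgfbr2, Ski and Smad7 to 0.064, 0.069 and 0.096. Differences relative to the median of all genes were also taken over the FPKM as deposited, upper-quartile, quantile and small-RNA-free scaling. These differences kept their sign for Tgfbr2, Smad7, Ski, Skil, Tgfb1 and Smad2, and varied most for Tgfb1. They lay between -0.93 and -0.87 for Tgfbr2, between -0.99 and -0.90 for Smad7, between -0.88 and -0.83 for Ski, between -0.78 and -0.65 for Skil and between 0.49 and 0.89 for Tgfb1. For Smad2 the range was 0.12 to 0.23.

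The sequences before the starts of Tgfbr2 and Ski are shown because both genes fell together in vector cultures and both RefSeq starts coincide with the locus ends in the files. They are the 250 bases upstream of the RefSeq start (GRCm38.p6 table), matched exactly to 1 place each in mm9, on the minus strand, at chr9:116084482-116084731 for Tgfbr2 and chr4:154596645-154596894 for Ski. Capitals mark CAGAC, the core of Smad-binding elements.
Tgfbr2: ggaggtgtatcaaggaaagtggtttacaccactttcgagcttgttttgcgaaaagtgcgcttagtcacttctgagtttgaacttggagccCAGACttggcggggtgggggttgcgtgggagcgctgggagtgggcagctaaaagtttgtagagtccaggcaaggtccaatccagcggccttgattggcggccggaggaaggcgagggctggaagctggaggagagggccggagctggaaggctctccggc
Ski: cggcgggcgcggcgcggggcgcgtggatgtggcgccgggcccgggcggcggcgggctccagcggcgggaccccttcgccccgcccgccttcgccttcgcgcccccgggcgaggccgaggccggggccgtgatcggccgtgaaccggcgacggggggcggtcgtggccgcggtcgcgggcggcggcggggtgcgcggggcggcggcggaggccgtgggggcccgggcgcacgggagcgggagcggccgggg
The 2 windows differ in composition, with 58.4% G or C and 12 CpG for Tgfbr2 and 87.6% and 53 CpG for Ski. On both strands, 4 motifs were searched. They were TTCNNNGAA for STAT proteins, AGATAA for GATA factors, AGGTGTGA for T-box factors and CAGAC for Smads. None of these strings contains another. Tgfbr2 held 1 CAGAC and Ski none, while 42.2% of all 32851 RefSeq promoter windows of this length held it. Neither window held the STAT, GATA or T-box letters, which 7.02%, 9.99% and 1.12% of all windows held. The RefSeq table matched 5 of the 10 genes, and the windows of Tgfb1, Smad3 and the upstream start of Tgfbr1 held none of the 4 motifs, while the window of a second Tgfbr1 start held 1 CAGAC.

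Smad7 stood out between genotypes in Th2 cells. It had 15.4, 11.1 and 7.10 FPKM in STAT6 KO Th2 (no vector, control vector, GATA3 vector), against 5.87, 5.13 and 3.71 FPKM in WT Th2. Every STAT6 KO library was above every WT Th2 library, and in both genotypes the level was lowest with the GATA3 vector. The ratios of KO to WT were 2.62, 2.16 and 1.91, and the Cufflinks intervals were apart in all 3 pairs. In the fit the difference was 1.01 (SE 0.30, 95% confidence interval 0.33 to 1.68), and it did not pass the threshold across all genes (limma adjusted p = 0.186). Nor did it pass with the 12 libraries (adjusted p = 0.074, SE 0.26). None of the 9 genes was called for STAT6 KO with 14 libraries, where 0.962% of all genes were called, and none with 12 libraries, where 4.5% were called. With 14 and 12 libraries, 1 and 2 of the 9 had an unadjusted p under 0.05, as did 11.0% and 20.5% of all genes.

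The STAT6 KO libraries also had higher levels of Foxp3, the defining factor of regulatory T cells. Foxp3 had 4.53, 8.38 and 3.25 FPKM in STAT6 KO Th2, against 0.300, 0.155 and 0.238 FPKM in WT Th2 (no vector, control vector, GATA3 vector). Ikzf2, the other marker on the regulatory T cell list, stayed below 1 FPKM in all 14 libraries, and neither of the 2 markers was at 0. The summed level of both was 4.13 to 8.72 FPKM in STAT6 KO Th2, against 0.270 to 0.958 FPKM in WT Th2. Genes of the Th1 programme were higher too: Tbx21, Ifng and Il12rb2 summed to 184, 79.5 and 39.6 FPKM in STAT6 KO Th2, against 18.1, 5.28 and 3.22 FPKM in WT Th2. The part of either list in the Smad7 difference was not tested.

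The other tested members differed less than Smad7 with STAT6 KO. Ski, Skil, Smad3 and Smad4 were also higher in all 3 KO libraries than in their WT counterparts, with the intervals apart each time, while Tgfb1 was lower in all 3. KO to WT ratios were 1.18 to 1.49 for Ski, 1.17 to 1.25 for Skil, 1.15 to 1.58 for Smad3 and 1.17 to 1.41 for Smad4. For Tgfb1, which had 72.2, 182 and 191 FPKM in STAT6 KO Th2 (no vector, control vector, GATA3 vector) against 103, 217 and 265 FPKM in WT Th2, the ratios were 0.703 to 0.837. Being higher in all 3 pairs was common, at 28.8% of all genes tested, and being lower in all 3 occurred in 17.4%. Of the 9 genes tested, 7 were higher in all 3 pairs, Tgfbr1 and Tgfbr2 with ratios of at most 1.34. Tgfb3, which was not tested, was near the floor in both genotypes. It had 0.071, 0.091 and 0.096 FPKM in the STAT6 KO libraries, against 0.404, 0.371 and 0.197 FPKM in WT Th2. The intervals of the GATA3 vector pair overlapped. Low levels were also found in Th1 cells, at 0.044 to 0.219 FPKM in WT Th1 without replicate 2 and 0.097 to 0.132 FPKM in STAT4 KO Th1.

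**Figure D3:**
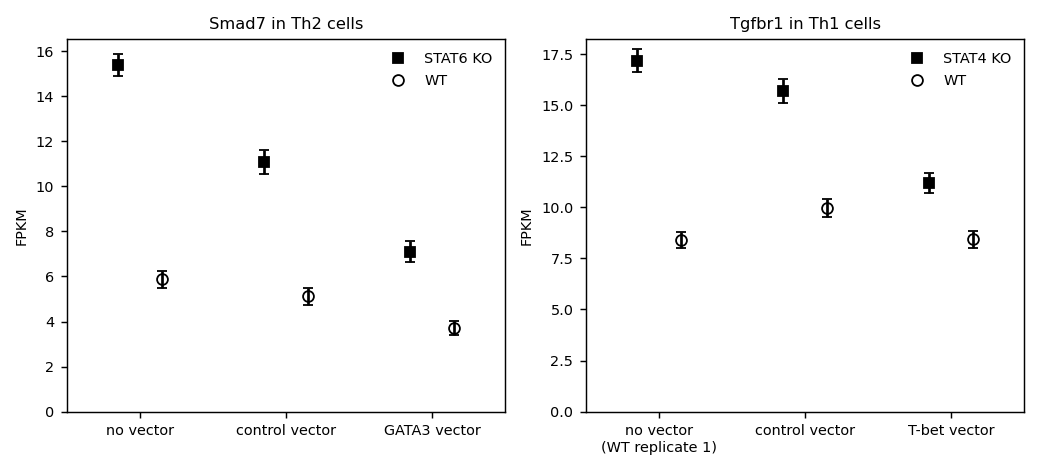
FPKM (y axes) of Smad7 in STAT6 KO (squares) and WT (circles) Th2 cells and of Tgfbr1 in STAT4 KO (squares) and WT (circles) Th1 cells in 3 culture types (x axes), 1 library per point, with the interval that Cufflinks lists as bars. The knockout library is above its WT counterpart in all 3 pairs of both panels, by 1.91 to 2.62 times for Smad7 and 1.33 to 2.05 times for Tgfbr1.

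In STAT4 KO Th1 cells the type I receptor gene stood out. Tgfbr1 had 17.2, 15.7 and 11.2 FPKM in STAT4 KO Th1 (no vector, control vector, T-bet vector), against 8.39, 9.96 and 8.44 FPKM in WT Th1 replicate 1 and the matched WT vector libraries. Each KO library was above every WT Th1 library, and without a vector the KO level was close to that of Th2 cells (17.3 FPKM in WT Th2). The fitted difference was 0.98 (SE 0.37, limma adjusted p = 0.251) with the 14 libraries and 0.64 (SE 0.14, adjusted p = 0.046) with the 12, a call that thus rests on leaving out WT Th1 replicate 2 with its 2.72 FPKM. With 14 libraries none of the 9 genes was called and 1 had an unadjusted p under 0.05, while 0.728% of all genes were called and 15.7% had such a p. With 12 libraries 1 of 9 was called, against 4.62% of all genes.

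No other gene of the 9 was called for STAT4 KO in either fit. Against WT Th1 replicate 1 and the matched WT vector libraries, Smad7 differed in direction between culture types. It had 20.7, 6.63 and 4.41 FPKM in STAT4 KO Th1 (no vector, control vector, T-bet vector), against 13.4, 9.0 and 7.44 FPKM in WT Th1. It was thus higher in the KO library without a vector and lower in both vector pairs, with intervals apart in all 3. Ski did the same, with 46.6, 21.2 and 16.1 FPKM in STAT4 KO Th1 against 36.4, 24.9 and 19.6 FPKM in WT Th1. Skil was lower in the KO library of all 3 pairs, at 83.5, 39.3 and 33.4 FPKM against 85.5, 54.3 and 39.1 FPKM. Its intervals overlapped without a vector. WT Th1 replicate 2, also without a vector, had 23.4 FPKM of Smad7, 65.2 FPKM of Ski and 39.6 FPKM of Skil. Against replicate 2, the KO library without a vector was lower for Smad7 and Ski and higher for Skil. Whether these knockout differences depend on vector culture was not tested by the fits used here. The interaction of STAT4 KO with the T-bet vector called none of the 9 genes in limma, with none at an unadjusted p under 0.05 and 0.00899% of all genes called. With 12 libraries the result was again none of 9 and none at an unadjusted p under 0.05, with 0.0187% of all genes called.

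Between the lineages, WT Th2 cells had less Smad7, Ski, Skil and Smad4 RNA than WT Th1 cells and more Tgfbr1 RNA, in both library pairs. In the control-vector pair the labels give 2 h of restimulation for Th1 and describe none for Th2. Lineage and restimulation cannot be told apart in that pair. The no-vector pair uses WT Th1 replicate 1. Against replicate 2 the direction without a vector reversed for Skil, at 70.3 FPKM in WT Th2 and 39.6 FPKM in replicate 2. Smad7 had 5.87 and 5.13 FPKM in WT Th2 (no vector, control vector), against 13.4 and 9.0 FPKM in WT Th1 replicate 1 and with the control vector. Ski had 22.6 and 19.99 FPKM in WT Th2, against 36.4 and 24.9 FPKM in WT Th1. For Tgfbr1 the levels were 17.3 and 13.5 FPKM in WT Th2, against 8.39 and 9.96 FPKM in WT Th1. Over all genes tested, 33.6% were lower and 25.0% higher in both pairs. The fitted differences were -1.11 for Smad7 (SE 0.31, limma adjusted p = 0.094), 1.03 for Tgfbr1 (SE 0.40, adjusted p = 0.215) and -0.74 for Ski (SE 0.26, adjusted p = 0.177), all short of the threshold. With the 12 libraries they were -0.96, 0.61 and -0.54, with adjusted p of 0.085, 0.056 and 0.127. None of the 9 genes was called in either fit, with 3 at an unadjusted p under 0.05 with 14 libraries and 5 with 12, while 3.21% and 8.66% of all genes were called and 19.5% and 25.7% had an unadjusted p under 0.05. The calls over all genes with 14 libraries split into 94 higher and 263 lower, and with quantile normalization into 132 and 209. In STAT6 KO Th2 Smad7 had 15.4 FPKM without a vector, which lies between WT Th1 replicates 1 and 2 at 13.4 and 23.4 FPKM, and 11.1 FPKM with the control vector, against 9.0 FPKM in WT Th1. The 2 regulatory T cell markers summed to 0.404 and 0.270 FPKM in WT Th2 (no vector, control vector), against 2.59 and 9.76 FPKM in WT Th1, and their part in the lineage difference was not tested.

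T-bet KO was measured in 1 library, which stands apart together with WT Th1 replicate 2, so the closest comparison is between these 2 libraries. Tgfb1 had 406 FPKM in T-bet KO Th1, against 243 FPKM in WT Th1 replicate 2 and 138 FPKM in replicate 1. Skil had 26.6 FPKM in T-bet KO Th1, against 39.6 FPKM in replicate 2 and 85.5 FPKM in replicate 1. The KO library was thus on the same side of both WT libraries for these genes. Tgfbr1, at 3.46 FPKM in T-bet KO Th1, lay between replicate 2 at 2.72 FPKM and replicate 1 at 8.39 FPKM. Ski, at 68.0 FPKM in T-bet KO Th1, was close to the 65.2 FPKM of replicate 2 and above the 36.4 FPKM of replicate 1. The 14-library fit gave 1.49 for Tgfb1 (SE 0.48, limma adjusted p = 0.333), -1.30 for Skil (SE 0.42, adjusted p = 0.335), -0.76 for Tgfbr1 (SE 0.55, adjusted p = 0.419) and 0.54 for Ski (SE 0.36, adjusted p = 0.390). None of the 9 genes was called, 2 had an unadjusted p under 0.05, as did 14.5% of all genes, and 0.018% of all genes were called. With a term for the 2 libraries that stand apart, which leaves 1 library against 1, Tgfbr1 reversed to 0.26.

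Ectopic T-bet went with lower levels of most of these genes. In both Th1 pairs, WT and STAT4 KO, the T-bet vector library had less Tgfb1, Tgfbr1, Tgfbr2, Smad2, Smad4, Smad7, Ski and Skil RNA than the control-vector library, while Smad3 was higher in both. Being lower in both pairs was found in 36.2% of all genes tested, and being higher in both in 23.6%. Tgfbr2 had 22.0 and 15.04 FPKM with the T-bet vector (WT, STAT4 KO), against 24.3 and 22.9 FPKM with the control vector. Smad7 had 7.44 and 4.41 FPKM with the T-bet vector, against 9.0 and 6.63 FPKM with the control vector, and Ski 19.6 and 16.1 FPKM against 24.9 and 21.2 FPKM. The intervals were apart in both pairs for these 3 genes and overlapped in both for Tgfb1 and Smad2. The sum of the 2 regulatory T cell markers was lower as well. It was 7.07 and 4.56 FPKM with the T-bet vector (WT, STAT4 KO), against 9.76 and 10.8 FPKM with the control vector. Foxp3 was lower in both pairs. Ikzf2 was lower in the STAT4 KO pair but higher in the WT pair, at 0.689 against 0.438 FPKM. The part of these markers was not tested. Fitted differences were -0.53 for Tgfbr2 (SE 0.24), -0.59 for Smad7 (SE 0.34) and -0.53 for Ski (SE 0.29), each at a limma adjusted p of 1.0. No member was called in either fit, none had an unadjusted p under 0.05 with 14 libraries and 3 did with 12 (1.35% and 3.61% of all genes). Of all genes, 0.0% were called with 14 libraries and 0.00934% with 12.

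Ectopic GATA3 went with a different arrangement. In both Th2 pairs, WT and STAT6 KO, the GATA3 vector library had more Tgfb1, Tgfbr1 and Tgfbr2 RNA than the control-vector library, and less Smad2, Smad3, Smad4, Smad7, Ski and Skil RNA. Over all genes tested, 37.4% were higher and 32.2% lower in both pairs. Tgfb1 had 265 and 191 FPKM with the GATA3 vector (WT, STAT6 KO), against 217 and 182 FPKM with the control vector. Smad3 had 20.04 and 24.5 FPKM with the GATA3 vector, against 29.4 and 33.8 FPKM with the control vector, and Smad7 3.71 and 7.10 FPKM against 5.13 and 11.1 FPKM. The ratios lay between 0.641 and 0.725 for Smad3 and Smad7 and between 1.05 and 1.27 for the ligand and receptor genes. None of the 9 genes was called in limma, none had an unadjusted p under 0.05 with 14 libraries and 1 did with 12 (8.57% and 16.9% of all genes), while 1.05% of all genes were called with 14 libraries and 3.53% with 12. With ectopic GATA3 the STAT6 KO to WT ratio of Smad7 was 1.91, and the interaction of STAT6 KO with the GATA3 vector called none of the 9 genes, with none at an unadjusted p under 0.05 and 0.0% of all genes called (0.0187% with 12 libraries, where again none of the 9 had an unadjusted p under 0.05).

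**Figure D4:**
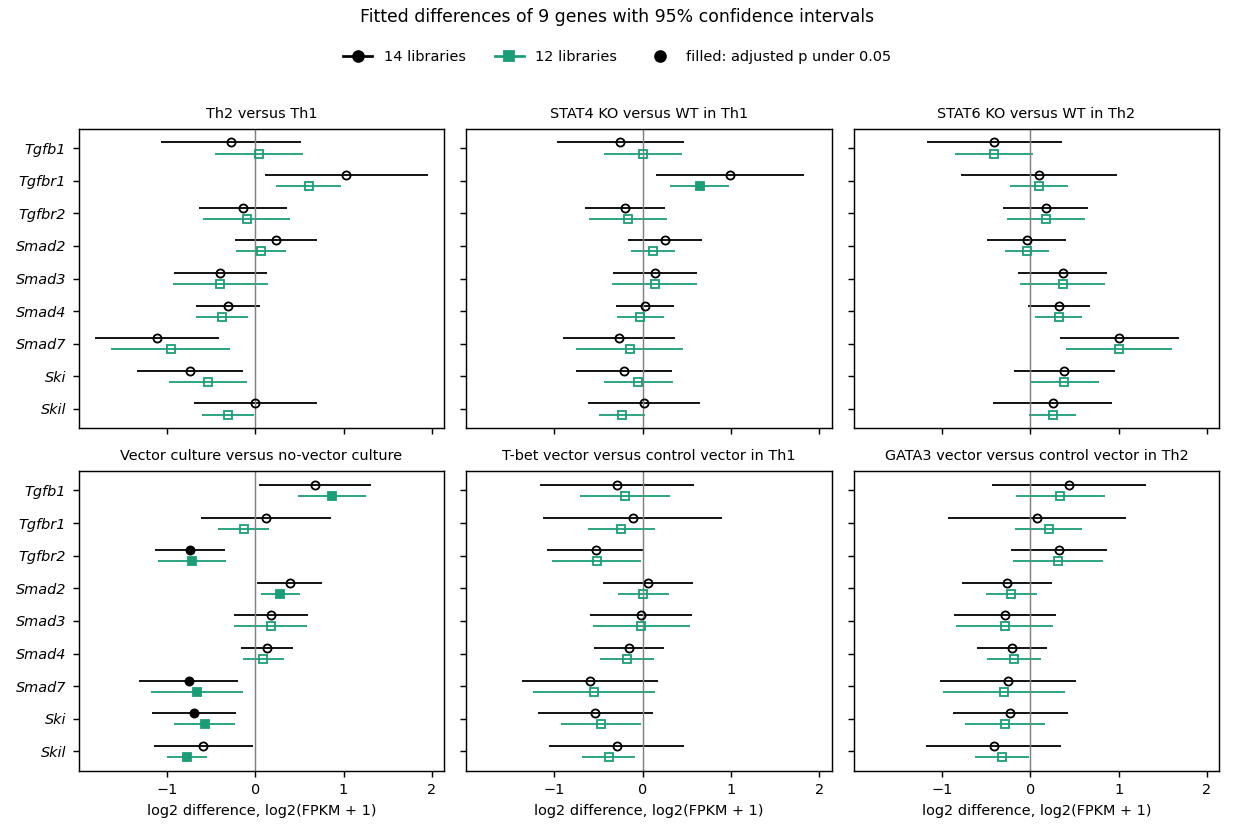
Fitted log2 differences of 9 genes (rows) in 6 comparisons, with 95% confidence intervals, from 14 libraries (black circles) and from the 12 without WT Th1 replicate 2 and T-bet KO Th1 (green squares); filled symbols have an adjusted p under 0.05 over all genes. Tgfbr2, Smad7 and Ski are filled in both fits for vector culture, and with 12 libraries Tgfb1, Smad2 and Skil are filled there too, as is Tgfbr1 for STAT4 KO.

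Other genes of the pathway were followed with a list of 69 genes in 6 groups by role, of which 68 were in the tables and 46 were tested. In vector cultures 8 of the 46 rose and 0 fell in the 14-library fit, with 23.4% and 8.15% of all genes called higher and lower. Of the 2 tested ligand genes Inhba, an activin subunit, rose by 2.08 (SE 0.47, limma adjusted p = 0.011). Of the 6 tested genes of latency and activation Itgav, the integrin alpha V chain that takes part in activating latent TGF-beta, rose by 2.40 (SE 0.25, adjusted p = 6.1e-04). Itgav had 39.8 to 82.3 FPKM in the 8 vector cultures, against 8.46 to 15.9 FPKM in the 6 no-vector cultures. Of the 8 other receptor and co-receptor genes the BMP and activin receptor genes Acvr1 and Bmpr2 and the receptor-associated Tgfbrap1 rose, by 0.99, 0.95 and 0.66. Smad1, 1 of the 2 other Smads tested and a transducer of BMP signals, rose by 0.62 (adjusted p = 0.010). Of the 10 genes known as TGF-beta targets 2 rose, among them Cdkn1a, a cell cycle inhibitor, by 1.18. None of the 18 Smad partners and regulators was called with 14 libraries. The median log2 difference of the 46 genes was 0.26. With 12 libraries 14 of the 46 were called higher, these 8 and Acvr1b, Id1, Rnf111, Strap, Tab1 and Trim33, at 0.28 to 1.28, and 2 lower, Sdcbp at -0.65 and Tgif1 at -0.45, with 37.1% of all genes called higher and 16.5% lower.

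For the GATA3 vector 3 of the 46 genes rose and 0 fell with 14 libraries, against 1.03% called higher and 0.018% called lower among all genes. Il9, which TGF-beta and IL-4 induce together, had 229 and 448 FPKM in GATA3 vector cultures (WT, STAT6 KO), against 3.28 and 0.162 FPKM with the control vector, a fitted difference of 7.44 (SE 0.54, limma adjusted p = 4.5e-04). Bmpr2 had 12.5 and 11.4 FPKM, against 4.43 and 4.52 FPKM (1.20, SE 0.21, adjusted p = 0.037). Of the 10 tested target genes, 8 were not called. With 12 libraries Inhba, Gdf11 and Smad1 were called higher as well, against 3.21% called higher and 0.317% called lower among all genes.

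In the other comparisons none of the 46 genes was called in the 14-library limma fit, and calls appeared with 12 libraries alone. For STAT6 KO, Foxp3 was called higher (2.30, SE 0.36, adjusted p = 0.014), with 2.82% of all genes called higher. For Th2 against Th1, 5 genes were called lower: Foxp3 at -2.27, Furin at -2.16, Lrrc32 at -1.34, Cdkn1a at -1.29 and Itgb1 at -1.03. Of all genes, 6.61% were called lower there. Furin encodes a protease that cleaves the TGF-beta precursor, and Lrrc32 encodes GARP, which holds latent TGF-beta on the cell surface. Furin had 148 FPKM in WT Th2 without a vector, against 1253 and 3274 FPKM in the WT Th1 replicates. For STAT4 KO, Furin was called lower at -1.85 (SE 0.39, adjusted p = 0.041), as was Id2, at -1.43, with 2.94% of all genes called lower. Furin had 154, 250 and 238 FPKM in STAT4 KO Th1 (no vector, control vector, T-bet vector), against 1253, 667 and 519 FPKM in WT Th1 replicate 1 and the matched WT vector libraries. Unadjusted p-values under 0.05 among the 46 genes with 14 libraries numbered 7 for Th2 against Th1, 5 for STAT4 KO, 4 for STAT6 KO, 8 for T-bet KO and 0 for the T-bet vector. Of all genes, 19.5%, 15.7%, 11.0%, 14.5% and 1.35% had such a p in these comparisons.

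The members themselves did not follow a single pattern over libraries. Over the 12 libraries without the 2 that stand apart, Smad7, Ski and Skil had similar profiles, with Pearson r of log2(FPKM + 1) of 0.95 for Smad7 with Ski, 0.92 for Ski with Skil and 0.83 for Smad7 with Skil. For Tgfb1, r was -0.84 with Skil, -0.74 with Ski and -0.70 with Smad7 over the 12 libraries, and -0.87, 0.09 and -0.12 over all 14. Among the other 3, with all 14 libraries, r was 0.93 for Smad7 with Ski, 0.18 for Ski with Skil and 0.36 for Smad7 with Skil. Tgfbr1 and Tgfbr2 were weakly related, at 0.40 over 12 libraries and -0.24 over 14. These are descriptions over libraries that share culture type, lineage and genotype.

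Genes with profiles most like those of Smad7 and Tgfbr1, the 2 tested members with the widest fold range, were taken by Pearson r of log2(FPKM + 1) over the 14 libraries. For Smad7 they were Tnip1 (r = 0.979), Phf21a (0.959) and Fam3c (0.957), with r of 0.972, 0.937 and 0.965 over the 12 libraries. For Tgfbr1 they were Recql (0.964), Zdhhc17 (0.959) and Golga1 (0.959), with r of 0.835, 0.844 and 0.855 over the 12 libraries. The Tgfbr1 values thus rest in part on the 2 libraries that stand apart.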

How the data were processed

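RNA was made into libraries with a TruSeq kit and read as single 100-base reads, per the labels' protocols. The FPKM values were deposited by the authors as Cufflinks gene tables with intervals; TopHat, Cufflinks and the mm9 genome are named in the submitters' processing notes, without versions. No read counts came with them, so depth is unknown. Chromatin samples of the series were not analysed here.

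With limma 3.58.1 in R 4.3.3, log2(FPKM + 1) of genes at 1 FPKM in at least 2 libraries was fitted with a trended variance. Genes with a failed estimate in any library were left out. A fold change on this scale understates the change of low genes. The fit was also run on data simulated from the same additive model with independent normal noise. Such data hold no departures from additivity, so that run does not show how well the p-values given here hold. Of 23700 genes, 11121 were fitted (10710 with 12 libraries), and Benjamini-Hochberg adjustment ran over all genes fitted. The libraries of a pair differed in the factor compared (genotype, lineage, factor vector or vector culture). Otherwise they had the same genotype, lineage and culture type. The rule for named genes was all 10 members, other pathway genes where called, and the top 3 by r for similar profiles. The members and lists were chosen with earlier results of these data known. Alternatives were another pseudocount, other filters and scalings, a term for the 2 libraries that stand apart, leaving out each library, and added interaction terms. Of the called pathway genes, 2 are not reported here.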

Additional observations from a re-analysis of the deposited data

Results flagged for a closer look

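In library pairs, Smad3 moved in opposite directions with vector culture in the 2 lineages. The WT Th1 pair uses replicate 1, with 35.6 FPKM, against 27.2 FPKM with the control vector, while replicate 2 had 28.0 FPKM. A label gives 2 h of restimulation for the Th1 vector cultures, and none is described for the Th2 vector cultures. Restimulation may thus differ between them and cannot be told apart from lineage in this contrast. The ratio of control-vector to no-vector FPKM was 1.77 in WT and 1.29 in STAT6 KO Th2 cells, against 0.764 in WT and 0.950 in STAT4 KO Th1 cells, where the intervals of the STAT4 KO pair overlapped. The interaction of lineage with vector culture, added after the data were seen, was 0.74 (SE 0.28) on the log2 scale, with an unadjusted limma p of 0.030 and an adjusted p of 0.695. With the 12 libraries it was 0.80 (SE 0.23, limma adjusted p = 0.225). No gene was called for this interaction in either fit, and 620 and 1722 genes had an unadjusted p under 0.05.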

How the results depend on the processing

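Values in this section are counts of genes called, unless stated. Without WT Th1 replicate 2 and T-bet KO Th1, counts were 928 for Th2 against Th1 (357 with 14 libraries), 495 for STAT4 KO (81), 482 for STAT6 KO (107), 1 for the T-bet vector (0), 378 for the GATA3 vector (117), 5747 for vector culture (3505), and 2 for each interaction (1 for STAT4 KO by T-bet, 0 for STAT6 KO by GATA3). T-bet KO, with 2 calls, could not be fitted there. A term for these libraries gave 760, 388, 301, 2, 322, 5671, 2 and 5 in the same order, and 98 for T-bet KO. Interaction terms in the model gave 116, 18, 29, 17 and 2172 for Th2, STAT4 KO, STAT6 KO, the GATA3 vector and vector culture. A minimum of 1 FPKM in all libraries gave 166, 44, 34 and 16 for the first 4 of these, 1 for T-bet KO and 0 for STAT4 KO by T-bet. No filter gave 21 for STAT4 KO, 56 for T-bet KO, 1 for the T-bet vector, 321 for the GATA3 vector and 93 and 531 for the interactions. A pseudocount of 0.1 gave 1 for T-bet KO, 59 for the GATA3 vector and 0 for STAT4 KO by T-bet. Upper-quartile and quantile scaling each gave 1 for T-bet KO, and quantile scaling 1 for the T-bet vector. Leaving out 1 library at a time gave 109 to 931 for Th2, 2 to 495 for STAT4 KO, 1 to 5154 for T-bet KO, 15 to 471 for STAT6 KO, 0 to 3 for the T-bet vector, 10 to 373 for the GATA3 vector, 2062 to 5754 for vector culture, 0 to 4 for STAT4 KO by T-bet and 0 to 2 for STAT6 KO by GATA3. Except for the T-bet vector, the highest count came without WT Th1 replicate 2, and for the T-bet vector without WT Th1 with that vector. The lowest came without WT Th2 for Th2, without the STAT4 KO or STAT6 KO control-vector library for these knockouts, without the STAT6 KO GATA3 vector library for GATA3, and without the STAT4 KO control-vector library for vector culture.

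Over 23 alternatives, the vector-culture call held in 20 for Tgfbr2, 11 for Ski and 9 for Smad7. Smad7 in STAT6 KO was never called, at 0.76 to 1.17 (log2). The Tgfbr1 difference in T-bet KO reversed to 0.26 (log2) with the term for the 2 libraries. Without WT Th1 replicate 2, the T-bet KO differences of Tgfb1, Skil, Tgfbr1 and Ski were 1.90, -1.71, -1.32 and 0.81 (log2). T-bet KO Th1 is then the only library left of the 2 that stand apart. The knockout therefore cannot be told apart there from whatever sets these libraries apart. No paired analysis was possible because the groups compared share fewer than 2 replicate numbers. Library pairs were matched by label alone, in whichever of genotype, lineage and culture type was not compared. Single libraries per group limit every comparison.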
